A study of Homo sapiens with 6 samples.

Results

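The histone genes of 6 established human breast cancer cell lines are described here from RNA sequencing with 1 library for each line. All rows of the deposited expression table whose gene name starts with HIST, H1F, H2AF or H3F were taken, which gave 53 genes of the 16418 used. Of these, 41 were clustered histone genes (HIST) and 12 were variant histone genes (H1F, H2AF and H3F). Among the genes of the table the names alone decided membership. Every gene used lay above 1 in at least 1 line, so histone genes lower than that in all lines may be missing from the table. Whether the table had been filtered by level was not tested. CAL51 is labelled breast carcinoma and MDA-MB-453 metastatic carcinoma. T47D and UACC-812 have the label ductal carcinoma, and SKBR3 and MDA-MB-415 the label adenocarcinoma. The labels name no treatment, and no line is a control. Growth media differed, and fetal bovine serum stood at 10% for CAL51 and T47D, at 15% for MDA-MB-415 and at 20% for the remaining lines. UACC-812 also received EGF at 20 ng/ml and MDA-MB-415 insulin at 10 mcg/ml with glutathione, so culture and line cannot be told apart. With 1 library a line there were no replicates and no tests, and each difference compares libraries.

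Histones are the proteins around which DNA is wrapped. The clustered genes encode the canonical core histones H2A, H2B, H3 and H4 and the linker histone H1, and most of their mRNA is made in S phase, when new DNA has to be packaged. Most of these mRNAs end in a stem-loop bound by the protein SLBP instead of a poly(A) tail, although several clustered genes also give polyadenylated transcripts. Variant histone genes lie outside the clusters, give polyadenylated mRNA for the most part and are used throughout the cell cycle. The libraries were made with an mRNA kit, so a clustered gene's value reflects both its level and how well its transcripts were captured, and these cannot be told apart.

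The stem-loop letters show which members carry the signal for the ending without poly(A). The 16-base pattern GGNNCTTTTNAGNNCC, searched on the transcript strand of GENCODE release 29, occurred in 23 of 41 clustered genes, 1 of 12 variant genes and 52 of 19669 protein-coding genes (0.264%). In 11 of the 41 clustered genes the longest annotated transcript had at most 420 bases, so the letters beyond its end were not searched. There were 6 forms of the element, printed with capitals at the positions where they differ, and the last came from the variant gene H2AFX. The first form occurred in 12 members, among them HIST1H2AC, HIST1H2BE and HIST2H2BF, the second and the third in 4 members each, and the fourth in 2.
HIST1H2AC: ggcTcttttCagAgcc
HIST1H2BC: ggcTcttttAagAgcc
HIST1H4H: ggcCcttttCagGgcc
HIST2H4A: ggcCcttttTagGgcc
HIST1H2AG: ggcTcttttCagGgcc
H2AFX: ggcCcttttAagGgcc

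Every value is the deposited level of a gene, read here as RPKM (reads per kilobase of exon, scaled to the number of reads in the library) summed over exons, so a level is compared between lines and not between genes of several exons. The depth behind the values, inferred from the values themselves, ran from 25600000 reads in UACC-812 to 36500000 in CAL51. Differences between lines are given as log2(value + 1) in a line minus the median of the 5 other lines, less the same median over all genes of that line. That median over all genes was -0.46 in SKBR3, 0.23 in CAL51, 0.19 in UACC-812 and between -0.01 and 0.09 in the other lines. The scale understates changes of low genes.

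All 6 libraries held epithelial RNA. EPCAM and KRT8, an adhesion molecule and a keratin, were at 1329 or more and 3962 or more in each, while CDH1, E-cadherin, was 0.823 in SKBR3, against 107 to 3978 in the others. Of the leukocyte markers, CD14, a monocyte receptor, was at 176 in MDA-MB-415, the line with the highest clustered histone genes, and at most 1.06 elsewhere. LYZ, lysozyme, lay between 9.995 in SKBR3 and 55.2 in CAL51, PTPRC reached 18.8 in CAL51, and CD3E was listed at 0 in all lines but SKBR3 (8.40). Of the 4 stromal markers measured, DCN was listed at 0 in all lines but MDA-MB-415 (11.1), PDGFRB was at 188 in CAL51 and at most 2.48 elsewhere, and the sum lay between 11.3 in SKBR3 and 285 in CAL51. Their part in the histone differences was not tested.

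Clustered histone genes were lowest in CAL51 and highest in MDA-MB-415 and T47D. Their median difference was -1.02 in CAL51, 0.64 in MDA-MB-415 and 0.53 in T47D, with -0.26 in UACC-812, 0.08 in MDA-MB-453 and 0.03 in SKBR3. In CAL51, 21 of the 41 clustered genes lay at least 2-fold below the 5 other lines and 1 lay at least 2-fold above, where the shares over all genes were 18.0% and 20.9%. Of the 21 genes, 5 were listed at 0 in CAL51, and with zeros treated as missing 16 lay below. The 1 gene above was HIST1H2AH, an H2A gene outside the naming rule and picked after its values were seen, with 1.60 in CAL51 and at most 0.247 elsewhere, and it was no longer 2-fold above without T47D among the 5 others. In MDA-MB-415, 10 clustered genes lay at least 2-fold above and none below (all genes: 19.9% above and 18.7% below). Without MDA-MB-453 among the 5 others the 10 became 17, and without T47D 16. In T47D, 9 lay above and 1 below (all genes: 16.2% and 11.5%), and the 9 became 14 without MDA-MB-415 and 2 without CAL51. The single gene below became 2 genes without UACC-812 or CAL51. The shares above in MDA-MB-415 and T47D, 24.4% and 22.0%, were thus not far from those of all genes, and in these lines the shift lay in the median and in the near absence of low genes.

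The remaining lines showed fewer 2-fold differences among clustered genes than the table as a whole. UACC-812 had 4 clustered genes at least 2-fold above and 5 below, against 20.6% and 13.5% of all genes. SKBR3 had 4 above and 2 below, against 15.9% and 21.2%. MDA-MB-453 had 2 above and 1 below, against 12.9% and 15.9%. These small counts shifted when 1 line was left out of the 5 others: without CAL51, UACC-812 had 2 above, SKBR3 5 below, and MDA-MB-453 had 1 gene above with 4 below. Without SKBR3, UACC-812 had 2 below and MDA-MB-453 2, and SKBR3 had 4 below without UACC-812 and 1 without MDA-MB-415. The medians of SKBR3, MDA-MB-453 and UACC-812 lay near 0 and each changed sign under at least 1 alternative: for SKBR3, -0.66 over the 20 clustered genes that reached 5 in a line.

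The order of the lines gave the same picture. MDA-MB-415 was the highest of the 6 lines for 16 of 41 clustered genes and T47D for 15, where they were highest for 16.5% and 15.6% of all genes. CAL51 was highest for 3 (all genes 27.9%), MDA-MB-453 for 3 (11.3%), UACC-812 for 2 (20.9%) and SKBR3 for 2 (7.82%). CAL51 was the lowest line for 20 clustered genes, against 12.5% of all genes. Some of these, such as HIST1H1D and HIST1H2BG, were lowest there at a listed 0. In CAL51 11 clustered genes were listed at 0, against 0 (SKBR3) to 4 (T47D) in the other lines. SKBR3 was lowest for 7 (30.9%), UACC-812 for 4 (8.42%), T47D for 2 (7.45%), MDA-MB-415 for 1 (17.2%) and MDA-MB-453 for 1 (10.2%). For the other clustered genes the lowest line was tied, at a listed 0.

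**Figure D1:**
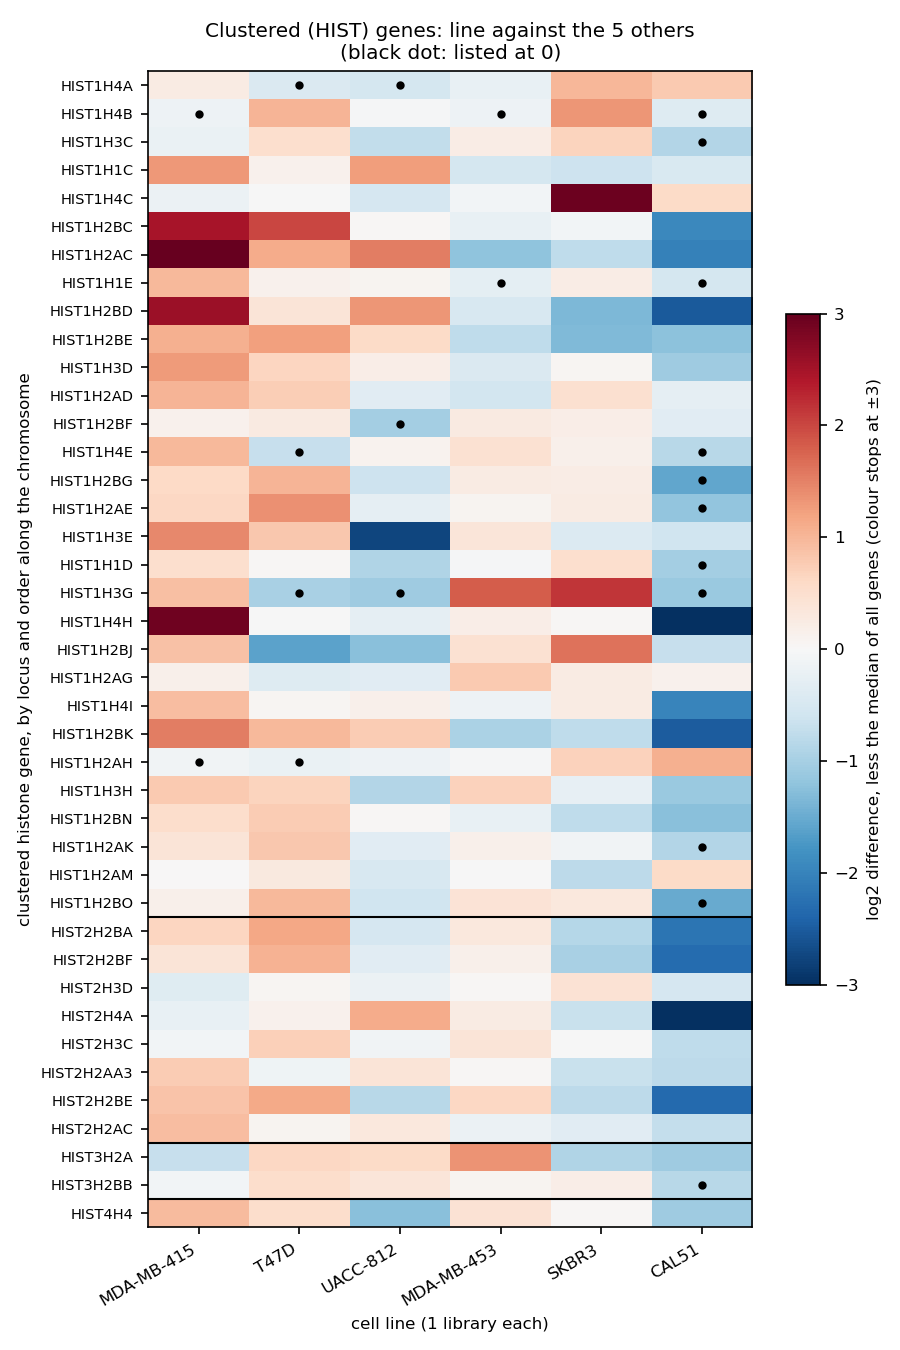
Each of the 41 clustered histone genes (rows, by locus and order along the chromosome) in the 6 lines (columns, 1 library each), coloured by the log2 difference of the line from the 5 others less the median of all genes, with black dots where a gene was listed at 0. The CAL51 column is mostly blue (21 of 41 genes at least 2-fold below) and the MDA-MB-415 column mostly red (none at least 2-fold below).

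Among the named genes of the HIST1 locus on chromosome 6 were an H2A gene and an H2B gene with a shared promoter. HIST1H2AC (now H2AC6), a core histone H2A gene, was at 137 in MDA-MB-415 cells, 46.9 in UACC-812 cells, 32.2 in T47D, 13.4 in SKBR3, 13.4 in MDA-MB-453 cells and 8.51 in CAL51. HIST1H2BC (H2BC4), an H2B gene, was at 29.3 in MDA-MB-415 cells, 22.7 in T47D, 5.50 in UACC-812 cells, 4.53 in MDA-MB-453 cells, 3.50 in SKBR3 and 0.997 in CAL51. Both genes were highest in MDA-MB-415 and lowest in CAL51, and in both the T47D value stood above those of SKBR3 and MDA-MB-453. Their log2 differences from the 5 others were 3.26 and 2.46 in MDA-MB-415 and -2.04 and -1.93 in CAL51, and over the 6 lines Pearson's r between the genes was 0.84 on the log2 scale, as a description of 6 points that share their libraries.

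HIST1H2AC and HIST1H2BC lie head to head, with annotated starts 246 bases apart, so that they share 1 promoter stretch. It is printed because these members differed between the same lines. The sequence is the 250 bases before the start of HIST1H2AC, RefSeq, GRCh38.p14, chr6:26123922-26124171, plus strand. It lies between the genes, apart from its first bases, which are the start of HIST1H2BC. Capitals mark a CCAAT box, a TATA box (TATAAA) and the octamer ATTTGCAT on either strand, elements long known from histone promoters, the octamer from H2B genes above all.
HIST1H2AC: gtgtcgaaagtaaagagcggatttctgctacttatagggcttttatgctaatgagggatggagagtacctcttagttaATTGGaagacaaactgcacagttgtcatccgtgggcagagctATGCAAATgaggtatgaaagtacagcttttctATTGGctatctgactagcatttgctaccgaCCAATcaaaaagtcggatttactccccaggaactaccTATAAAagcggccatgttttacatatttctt

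Across the promoters that could be matched (35 of 41 clustered genes and 10 of 12 variant genes, from 250 bases before to 50 after the start), CCAAT occurred in 30 clustered and 7 variant promoters, against 35.7% of all 27305 promoters. TATAAA occurred in 21 clustered and 4 variant promoters (11.95% of all), and the octamer in 16 clustered promoters and 1 variant promoter (1.802% of all). Among clustered H2B genes the octamer was found in 9 of 12 promoters, and among the other clustered genes in 7 of 23. Such matches describe the letters only.

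HIST1H2BK (H2BC12), an H2B gene of the same locus, had the largest deposited values of the clustered genes. It was at 292 in MDA-MB-415 cells, 211 in T47D, 195 in UACC-812 cells, 100 in MDA-MB-453 cells, 83.5 in SKBR3 and 39.7 in CAL51. MDA-MB-415, T47D and UACC-812 stood above the other lines, and CAL51 lay below all of them, with a log2 difference of -2.50. Of its 50-base windows, 74.1% also occur in at least 1 other annotated gene, with H2BFS sharing the most, so its reads may be split or pooled. Its promoter, RefSeq, GRCh38.p14, chr6:27146859-27147108, minus strand, is given with the same elements in capitals because this gene had values of 39.7 or more in every line.
HIST1H2BK: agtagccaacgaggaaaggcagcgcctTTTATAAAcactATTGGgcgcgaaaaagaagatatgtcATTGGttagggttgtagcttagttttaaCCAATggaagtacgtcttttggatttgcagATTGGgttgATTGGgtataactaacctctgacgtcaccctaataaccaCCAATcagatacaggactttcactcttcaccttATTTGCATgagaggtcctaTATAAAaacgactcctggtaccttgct

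Other H2B genes of the locus followed a similar order. HIST1H2BD (H2BC5) was at 75.5 in MDA-MB-415 cells, 35.9 in UACC-812 cells, 17.1 in T47D, 12.01 in MDA-MB-453 cells, 4.19 in SKBR3 and 2.73 in CAL51. HIST1H2BE (H2BC6) was at 19.4 in T47D, 16.1 in MDA-MB-415 cells, 12.9 in UACC-812 cells, 7.18 in MDA-MB-453 cells, 5.92 in CAL51 and 3.07 in SKBR3, and HIST1H2BN (H2BC15) at 26.1 in T47D, 20.6 in MDA-MB-415 cells, 16.5 in UACC-812 cells, 14.0 in MDA-MB-453 cells, 7.58 in CAL51 and 6.48 in SKBR3. For HIST1H2BE and HIST1H2BN the highest line was T47D and the lowest SKBR3, with CAL51 next to it. For HIST1H2BD it was MDA-MB-415, at 2.10 times the next line, and CAL51 was lowest. HIST1H2BJ (H2BC11) went the other way and is named after its values were seen: SKBR3 was highest at 10.3 and T47D lowest at 1.42.

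The H2A and H2B genes of the HIST2 locus on chromosome 1 were low in CAL51 and SKBR3. HIST2H2BF (H2BC18) was at 73.7 in T47D, 43.2 in MDA-MB-415 cells, 36.9 in MDA-MB-453 cells, 33.3 in UACC-812 cells, 13.04 in SKBR3 and 8.01 in CAL51. HIST2H2BE (H2BC21) was at 12.3 in T47D, 9.21 in MDA-MB-415 cells, 7.85 in MDA-MB-453 cells, 4.71 in UACC-812 cells, 2.72 in SKBR3 and 1.05 in CAL51. T47D was highest for both and CAL51 lowest, with log2 differences of -2.31 and -2.34 in CAL51. HIST2H2BA, which the annotation now calls the pseudogene H2BP1, was at 19.8 in T47D, 12.4 in MDA-MB-415 cells, 9.85 in MDA-MB-453 cells, 7.69 in UACC-812 cells, 3.38 in SKBR3 and 1.77 in CAL51. Of its windows, 73.4% occur also in at least 1 other annotated gene, with HIST2H2BF sharing the most. HIST2H2AA3, an H2A gene that has the identical copy HIST2H2AA4, was at 53.6 in MDA-MB-415 cells, 46.9 in UACC-812 cells, 32.2 in MDA-MB-453 cells, 31.3 in T47D, 21.8 in CAL51 and 14.3 in SKBR3. MDA-MB-415 and UACC-812 led for this gene, and SKBR3, not CAL51, was its lowest line.

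The H4 genes differed among themselves, and HIST1H4H had the widest range of log2 levels of the 41 clustered genes. HIST1H4H (H4C8) was at 126 in MDA-MB-415 cells, 18.3 in MDA-MB-453 cells, 16.8 in T47D, 15.9 in UACC-812 cells, 12.2 in SKBR3 and 0.0547 in CAL51. MDA-MB-415 lay at 6.92 times the next line, CAL51 was close to 0, and the other 4 lines were within 12.2 to 18.3. HIST2H4A (H4C14), which has the identical copy HIST2H4B, was at 134 in UACC-812 cells, 64.0 in MDA-MB-453 cells, 63.3 in T47D, 54.1 in MDA-MB-415 cells, 28.6 in SKBR3 and 6.67 in CAL51. Here UACC-812 was highest, at 2.10 times the next line, and CAL51 again lowest. HIST1H4I (H4C9) was at 13.5 in MDA-MB-415 cells, 8.76 in UACC-812 cells, 7.59 in T47D, 6.69 in MDA-MB-453 cells, 6.41 in SKBR3 and 1.56 in CAL51, with MDA-MB-415 highest and CAL51 lowest.

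HIST1H4C (H4C3) had another order of lines. It was at 7.61 in SKBR3, 1.69 in CAL51, 0.614 in T47D, 0.529 in MDA-MB-453 cells, 0.425 in MDA-MB-415 cells and 0.3004 in UACC-812 cells. SKBR3 was 4.51 times the next line, which was CAL51. These values stood for 100 reads in SKBR3, 24 in CAL51, 7 in T47D, 7 in MDA-MB-453 cells, 5 in MDA-MB-415 cells and 3 in UACC-812 cells, so only the SKBR3 and CAL51 levels rested on more than 10 reads. HIST1H3E (H3C6), an H3 gene, was at 14.7 in MDA-MB-415 cells, 9.80 in T47D, 6.44 in MDA-MB-453 cells, 4.77 in CAL51, 3.10 in SKBR3 and 0.249 in UACC-812 cells, with MDA-MB-415 highest and UACC-812 lowest. Apart from UACC-812, the lines lay between 3.10 and 14.7.

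Many clustered genes had low values. Of the 41 clustered genes 20 reached 5 in a line and 21 did not, and 14 were listed at 0 in at least 1 line. HIST1H3G and HIST1H4B were listed at 0 in 3 lines, with highest values of 2.52 in MDA-MB-453 and 1.15 in T47D. HIST1H1C (H1-2), a linker histone gene named after its values were seen, was at 14.5 in UACC-812 cells, 12.9 in MDA-MB-415 cells, 5.66 in T47D, 4.72 in CAL51, 3.58 in MDA-MB-453 cells and 2.15 in SKBR3, so that UACC-812 and MDA-MB-415 stood above the rest.

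Read counts put these low levels in scale. For 26 of the 41 clustered genes the deposited values were whole numbers of reads in all 6 lines at 1 exon length between 357 and 785 bases. The allowed gap was 0.01 reads, and wider in proportion to the count for larger counts. Summed over the 26, per 1000000 reads MDA-MB-415 had 43.7 (95% Poisson interval 41.4 to 46.1), T47D 42.9 (40.6 to 45.4), UACC-812 33.8 (31.6 to 36.1), MDA-MB-453 27.2 (25.5 to 29.01), SKBR3 18.1 (16.7 to 19.6) and CAL51 16.6 (15.3 to 18.0). The intervals cover counting error only, and reads are not independent molecules. A few genes gave much of each sum. In MDA-MB-415 HIST1H1C gave 285 and HIST1H2BE 211 of 1319 reads. In T47D HIST1H2BE gave 247 and HIST2H2BA 223 of 1254, and in UACC-812 HIST1H1C gave 272 of 866. MDA-MB-415 and T47D had overlapping intervals, as did SKBR3 and CAL51, and no other pair of lines overlapped. On this scale, with no correction for all genes, SKBR3 stood beside CAL51 at the low end. The remaining 15 clustered genes gave no accepted read count. Lengths from 250 to below 1200 bases were searched, and genes with more than 300 reads in a line were not accepted. HIST1H2BK, HIST1H2AC, HIST2H4A, HIST1H4H, HIST1H2BD, HIST2H2BF and HIST2H2AA3 exceeded that cap at every searched length, so the sum leaves out such high genes by rule.

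In CAL51 the 26 genes fell into 11 listed at 0 and 15 with 10 or more reads, and none had 1 to 9 reads. In the other lines between 2 (T47D) and 9 (SKBR3) of them had 1 to 9 reads, and between 0 (SKBR3) and 4 (T47D) were listed at 0. Among all 509 single-exon genes CAL51 likewise had 68 at 0 and 19 at 1 to 9 reads, where the other lines had 15 to 44 at 0 and 51 to 74 at 1 to 9. Whether low values were removed in this library was not tested. The medians of -1.02 for the clustered genes and of -1.57 for their H2B genes in CAL51 fell on genes listed at 0 there, HIST1H1D and HIST1H2BG, whose differences depend on the added 1. With zeros treated as missing, these medians were -1.19 and -2.20.

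**Figure D2:**
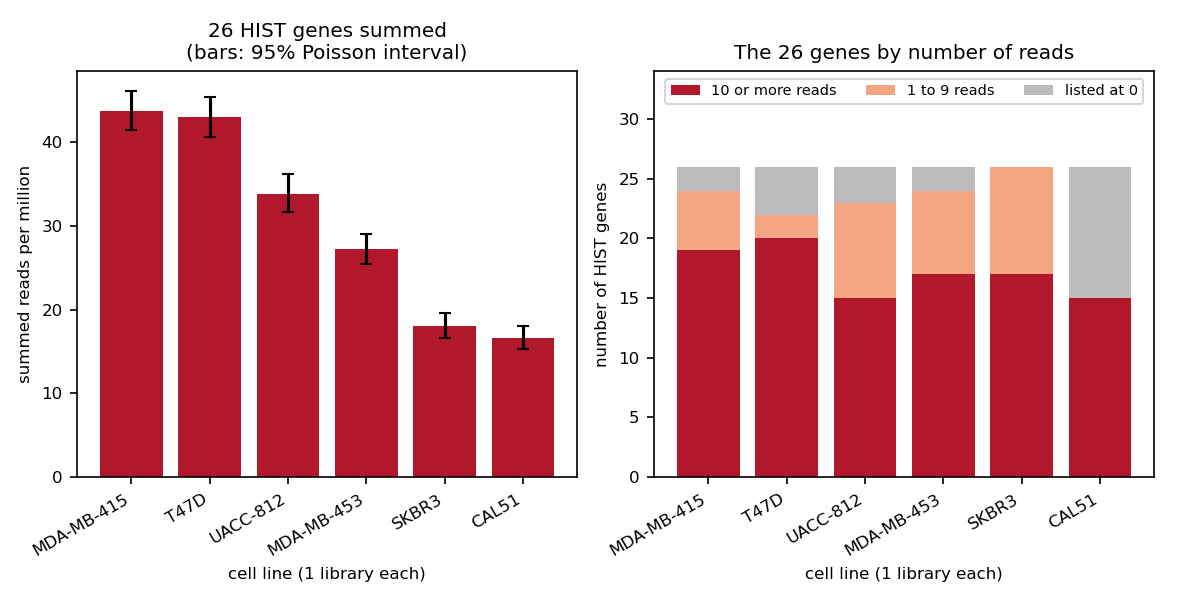
Left, reads per 1000000 summed over the 26 clustered genes with recovered reads in each line (bars, with 95% Poisson intervals for counting error); right, the same 26 genes by number of reads. MDA-MB-415 (43.7) and T47D (42.9) are highest and SKBR3 (18.1) and CAL51 (16.6) lowest, and CAL51 alone has no gene with 1 to 9 reads.

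By histone type, the medians of the 13 clustered H2B genes lay further apart between lines than those of the H2A, H3 and H4 genes. Their median difference was -1.57 in CAL51, where 10 of 13 lay at least 2-fold below (all genes: 18.0%), and 0.98 in T47D, which was the highest line for 9 of 13 (all genes: 15.6%). SKBR3 had the next lowest H2B median, -0.75. The 10 H2A genes had medians of -0.75 in CAL51 and 0.45 in T47D, the 7 H3 genes -0.89 and 0.65, and the 8 H4 genes -0.95 and 0.03. In MDA-MB-415 the medians were 0.51 for H2A, 0.64 for H2B, 0.78 for H3 and 0.58 for H4. The H3 median was 0.044 without UACC-812 or without CAL51 among the 5 others and 0.16 without T47D. No difference between the types was tested.

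By locus, the low level in CAL51 was found on both chromosomes that hold the main clusters. The 30 HIST1 genes on chromosome 6 had a median of -0.95 in CAL51 and 0.82 in MDA-MB-415, and the 8 HIST2 genes on chromosome 1 had -1.49 and 0.51. The other 13 genes in the table that lie among the HIST1 genes, such as HFE, PRSS16 and butyrophilin genes, had a median of -0.12 in CAL51, where 4 lay at least 2-fold below and none above (all genes: 18.0% and 20.9%), and 1.24 in MDA-MB-415, where 7 lay at least 2-fold above and 2 below (all genes: 19.9% and 18.7%). Their part in the histone levels was not tested. HIST4H4 (H4C16), alone on chromosome 12, had -1.06 in CAL51 and 0.95 in MDA-MB-415. Clustered genes with and without the stem-loop letters had medians of -1.19 and -0.64 in CAL51 and of 0.77 and 0.57 in MDA-MB-415. The 18 genes without the letters include all 11 whose longest annotated transcript had at most 420 bases. Absence of the element was not established for these, so the split does not separate genes by the element.

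Variant histone genes took another course than clustered genes. Their median difference was -0.99 in MDA-MB-415 cells, 0.75 in MDA-MB-453 cells and -0.53 in UACC-812. It lay near 0 in SKBR3 (0.18), CAL51 (0.12) and T47D (0.01), each of which changed sign under at least 1 alternative. MDA-MB-415 was the lowest line for 8 of 12 variant genes and MDA-MB-453 the highest for 5. In MDA-MB-415, 6 of 12 lay at least 2-fold below and none above (all genes: 18.7% below and 19.9% above). That 6 became 3 without MDA-MB-453 or without CAL51 among the 5 others. In MDA-MB-453, 2 lay above (all genes: 12.9%), a count that became 4 without UACC-812 or without SKBR3 and 6 without T47D or without CAL51. In CAL51, 4 lay above and 1 below (all genes: 20.9% and 18.0%), and with zeros treated as missing 2 lay above. SKBR3 had as many above, 4, and 3 below (all genes: 15.9% and 21.2%), so that its median near 0 stood for genes spread to both sides. The 4 became 2 without UACC-812, without MDA-MB-415 or without T47D among the 5 others.

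**Figure D3:**
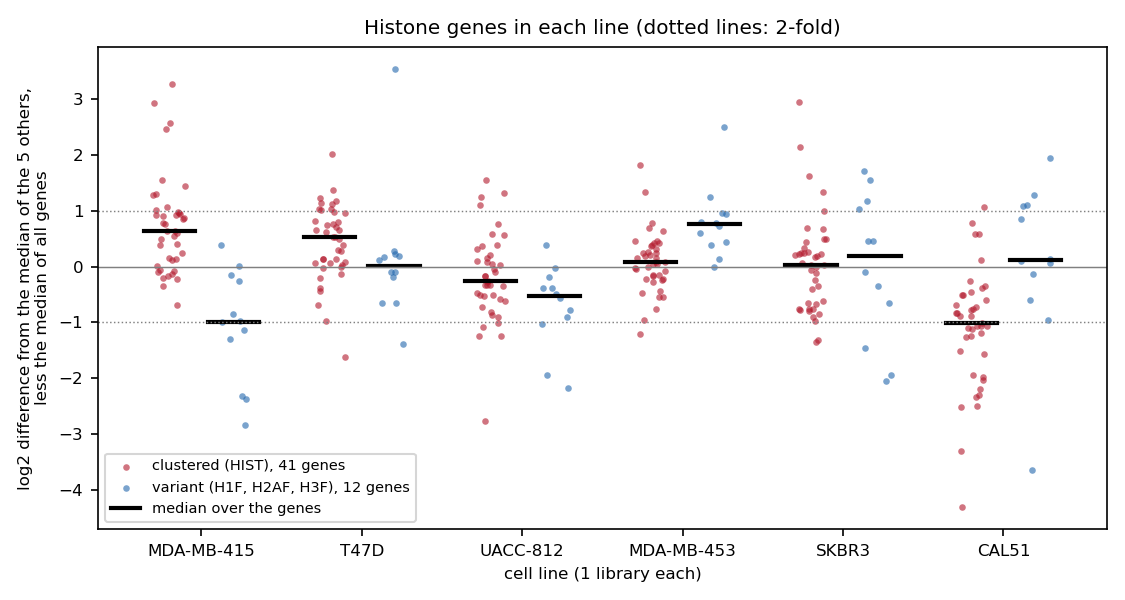
Log2 difference of each histone gene in a line from the median of the 5 other lines, less the median of all genes (1 library a line), for the 41 clustered genes (red, left) and the 12 variant genes (blue, right). Black bars are medians over genes: 0.64 and -0.99 in MDA-MB-415, and -1.02 and 0.12 in CAL51.

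Setting clustered against variant genes, the difference of the medians was 1.63 in MDA-MB-415 and -1.14 in CAL51, with opposite signs in these lines. It was 0.52 in T47D, 0.27 in UACC-812, -0.15 in SKBR3 and -0.67 in MDA-MB-453. Under the alternatives it ran from 1.17 to 1.96 in MDA-MB-415 and from -1.89 to -0.61 in CAL51. Because of the added 1, a scale factor for a whole library moves low genes less than high genes. Of the clustered genes 21 did not reach 5 in any line, while 11 of the 12 variant genes did. Such a factor therefore need not move both classes alike. For UACC-812 the difference of the medians turned to -0.19 without CAL51 among the 5 others, and for SKBR3 it changed sign under several settings.

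Of the H2A variants, H2AFZ (H2AZ1), one of the genes for H2A.Z, which marks promoters, was at 2104 in CAL51, 1991 in MDA-MB-453 cells, 1383 in SKBR3, 840 in UACC-812 cells, 562 in T47D and 561 in MDA-MB-415 cells. H2AFV (H2AZ2), the other H2A.Z gene, was at 2283 in SKBR3, 1308 in MDA-MB-453 cells, 1244 in T47D, 963 in CAL51, 313 in UACC-812 cells and 246 in MDA-MB-415 cells. Both were lowest in MDA-MB-415, but T47D was as low as MDA-MB-415 for H2AFZ and not for H2AFV. H2AFX (H2AX), the variant phosphorylated at DNA breaks, was at 73.2 in CAL51, 42.1 in MDA-MB-453 cells, 37.6 in SKBR3, 25.1 in T47D, 20.6 in UACC-812 cells and 6.38 in MDA-MB-415 cells. CAL51 was its highest line and MDA-MB-415 its lowest, although H2AFX was the only variant gene with the stem-loop letters.

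H2AFY (MACROH2A1), which encodes macroH2A1, an H2A with a large added domain, was at 1496 in MDA-MB-415 cells, 1270 in MDA-MB-453 cells, 1235 in CAL51, 1153 in T47D, 1083 in UACC-812 cells and 216 in SKBR3. H2AFY2 (MACROH2A2), for macroH2A2, was at 67.4 in T47D, 23.9 in CAL51, 6.19 in MDA-MB-453 cells, 4.53 in UACC-812 cells and 0.360 in SKBR3, and listed at 0 in MDA-MB-415. H2AFY was low in SKBR3 and within 1083 to 1496 elsewhere, while H2AFY2 was highest in T47D, at 2.82 times the next line. H2AFJ (H2AJ), a variant known to accumulate in senescent cells, was at 27.7 in MDA-MB-453 cells, 19.0 in T47D, 17.6 in UACC-812 cells, 15.7 in MDA-MB-415 cells, 3.91 in SKBR3 and 0.748 in CAL51, with CAL51 and SKBR3 low.

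The H3 variant genes varied less between lines than the H2A variants, as did the linker variant H1FX. H3F3A and H3F3B encode H3.3, which replaces canonical H3 outside S phase. H3F3A (H3-3A) was at 1861 in MDA-MB-453 cells, 1173 in CAL51, 962 in SKBR3, 959 in T47D, 643 in UACC-812 cells and 529 in MDA-MB-415 cells. H3F3B (H3-3B) was at 744 in MDA-MB-453 cells, 539 in CAL51, 494 in T47D, 429 in UACC-812 cells, 335 in SKBR3 and 245 in MDA-MB-415 cells. H3F3C (H3-5), for the testis variant H3.5, was at 68.6 in MDA-MB-453 cells, 45.9 in CAL51, 43.8 in T47D, 35.2 in UACC-812 cells, 24.5 in SKBR3 and 21.7 in MDA-MB-415 cells, and 21.8% of its windows are shared, mostly with H3F3B. All 3 were highest in MDA-MB-453 and lowest in MDA-MB-415, with 3.04 to 3.52 times between the extremes.

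Among the linker variants, H1FX (H1-10) was at 29.4 in CAL51, 21.0 in MDA-MB-453 cells, 20.4 in UACC-812 cells, 13.4 in T47D, 8.84 in SKBR3 and 8.64 in MDA-MB-415 cells, so that CAL51 was highest and MDA-MB-415 and SKBR3 were alike at the low end. H1FOO (H1-8), the oocyte linker histone, was at 1.51 in CAL51 and listed at 0 in the other 5 lines.

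**Figure D4:**
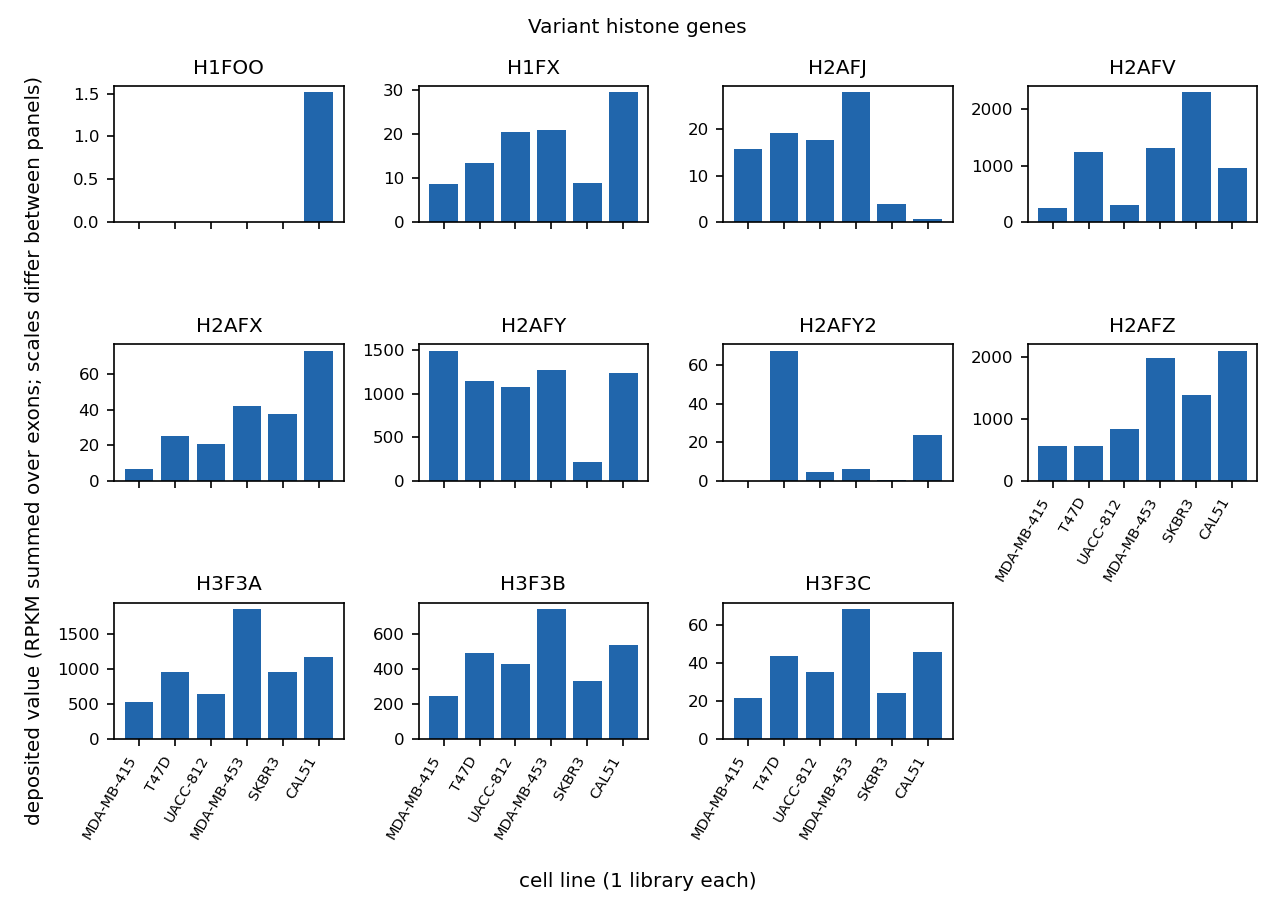
Deposited value (RPKM summed over exons) of 11 of the 12 variant histone genes in the 6 lines, 1 library each, with a separate linear axis from 0 for each gene. MDA-MB-453 is highest for H2AFJ, H3F3A, H3F3B and H3F3C, and MDA-MB-415 is lowest for 8 of the 11 shown.

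Likeness between members was described over the 6 lines by Pearson's r of log2 levels, for genes that reached 5 in a line. All pairs share the same 6 libraries. Of the 20 clustered genes that passed this filter, MDA-MB-415 was the highest line for 10, T47D for 5 and CAL51 for none. The filter itself could therefore make these genes more alike. Members that share sequence, such as HIST2H2BA and HIST2H2BF, may also share reads. The median r was 0.65 over the 190 pairs of 20 clustered genes, 0.42 over the 55 pairs of 11 variant genes and -0.27 over the 220 pairs of 1 clustered and 1 variant gene. Over all pairs of the 14647 genes that reached 5 it was 0.09.

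Genes of S phase and proliferation ran opposite to the clustered genes in the lines that stood apart. This list of 49 measured genes was chosen by role. Its median difference was -1.70 in MDA-MB-415 and 1.28 in CAL51, with -0.87 in UACC-812, 0.44 in SKBR3, 1.05 in MDA-MB-453 and -0.20 in T47D. In MDA-MB-415, 41 of 49 lay at least 2-fold below and none above, and in CAL51 31 lay above and none below, against the shares of all genes given before. Between clustered genes and this list the median pairwise r was -0.55, over genes that passed the same filter and with the same limit.

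MKI67, a marker of cycling cells, was at 1242 in CAL51, 520 in MDA-MB-453 cells, 194 in SKBR3, 164 in UACC-812 cells, 140 in T47D and 125 in MDA-MB-415 cells. TYMS, which makes thymidylate for DNA synthesis, was at 955 in CAL51, 181 in SKBR3, 177 in UACC-812 cells, 169 in T47D, 152 in MDA-MB-453 cells and 44.7 in MDA-MB-415 cells, and CDC25A, a phosphatase that opens S phase, at 842 in CAL51, 426 in MDA-MB-453 cells, 296 in SKBR3, 160 in T47D, 128 in UACC-812 cells and 10.3 in MDA-MB-415 cells. CAL51 was highest and MDA-MB-415 lowest for these 3 genes, the reverse of HIST1H2AC, HIST1H2BC and HIST1H4H. Other genes of the list had SKBR3 as their highest line. CDC6, which loads the replicative helicase, was at 3918 in SKBR3, 3352 in UACC-812 cells, 1448 in CAL51, 612 in T47D, 533 in MDA-MB-453 cells and 108 in MDA-MB-415 cells. AURKA, a mitotic kinase, was at 3360 in SKBR3, against 119 in MDA-MB-415 and 363 to 673 in the others. In RNA from whole cultures, fewer cells in S phase and less RNA per cell cannot be told apart.

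Genes listed for making, regulating or degrading histone mRNA were closer to the table's middle. SLBP, CCNE1 and CCNE2 are also in the S phase list. Over 37 measured genes the median was 0.51 in CAL51 and -0.48 in MDA-MB-415, and in CAL51 8 lay at least 2-fold above and 1 below, in MDA-MB-415 1 above (none without SKBR3, MDA-MB-453 or T47D among the 5 others) and 9 below. The 8 made 21.6% of the list, against 20.9% of all genes, and the 9 made 24.3%, against 18.7%. SLBP, the stem-loop binding protein, was at 1107 in CAL51, 969 in MDA-MB-453 cells, 661 in T47D, 418 in SKBR3, 257 in UACC-812 cells and 214 in MDA-MB-415 cells. NPAT, the coactivator of clustered histone genes, was at 102 in MDA-MB-453 cells, 85.7 in SKBR3, 79.4 in CAL51, 74.5 in T47D, 37.4 in UACC-812 cells and 24.6 in MDA-MB-415 cells. ERI1, an exonuclease that acts on the stem-loop end, was at 391 in CAL51, against 27.6 to 84.7 in the other lines. SLBP and NPAT were both lowest in MDA-MB-415, where the clustered genes were high, and SLBP was highest in CAL51, where they were low. ZCCHC11, a uridylyl transferase that tags histone mRNA for decay, was at 703 in CAL51 and 5.67 in MDA-MB-415, against 157 to 425 in the other lines. CPSF1, a cleavage factor subunit, was lowest in SKBR3, at 146, against 587 to 984 in the other lines.

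Genes listed for histone chaperones, which carry new histones to DNA, and for histone exchange or import had medians of a similar size. MCM2 is also in the S phase list. The median over the 41 measured genes of this list was 0.53 in CAL51 and -0.53 in MDA-MB-415. In CAL51 8 lay at least 2-fold above and 1 below, and in MDA-MB-415 1 above and 12 below. The 8 made 19.5% of the list, against 20.9% of all genes, and the 12 made 29.3%, against 18.7%. ASF1B, an H3-H4 chaperone of dividing cells, was at 171 in CAL51, 110 in MDA-MB-453 and 21.9 (SKBR3) to 43.2 in the other lines. CHAF1A, a subunit of the chaperone that assembles nucleosomes behind the fork, was at 449 in CAL51, 215 in UACC-812 cells, 215 in MDA-MB-453 cells, 145 in T47D, 70.8 in MDA-MB-415 cells and 58.4 in SKBR3. CAL51 was highest for both, but their lowest line was SKBR3. VPS72, a subunit of complexes that exchange H2A.Z, was at 719 in UACC-812, against 59.3 (SKBR3) to 205 in the other lines. CENPA, the centromeric H3 variant, whose name lies outside the rule for members, was at 128 in CAL51, 92.6 in SKBR3, 81.4 in MDA-MB-453 cells, 38.1 in T47D, 21.0 in UACC-812 cells and 10.5 in MDA-MB-415 cells. Like H2AFX and H2AFZ it was highest in CAL51 and lowest in MDA-MB-415.

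**Figure D5:**
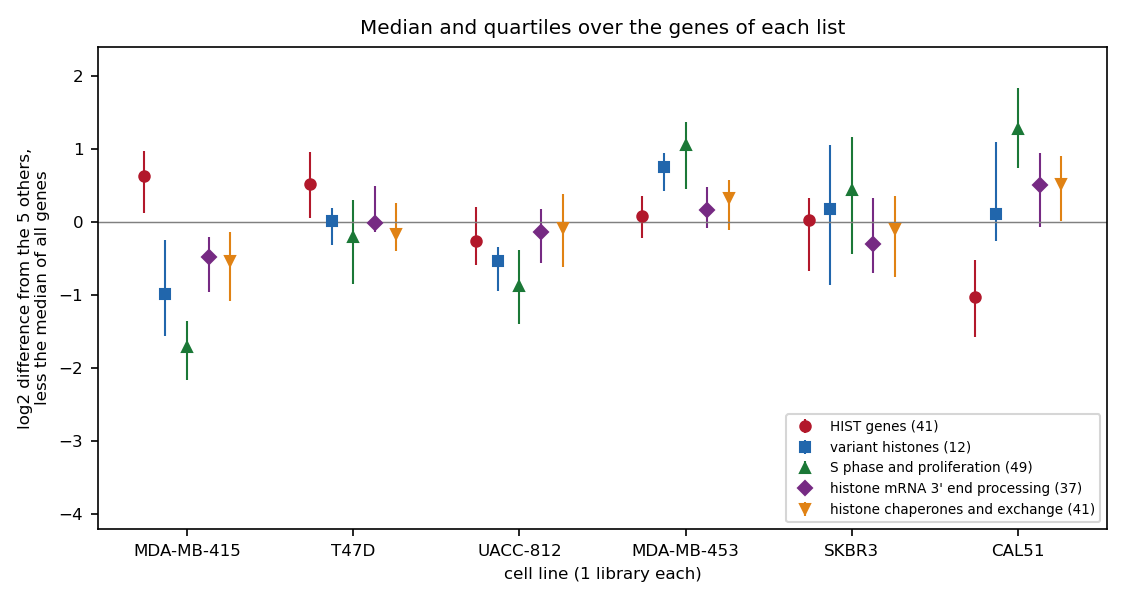
Median (symbols) and quartiles (bars) over the genes of each list of the log2 difference of a line from the 5 others, less the median of all genes, for clustered genes, variant genes and 3 lists of related genes. In MDA-MB-415 the clustered genes are at 0.64 and S phase genes at -1.70, and in CAL51 at -1.02 and 1.28.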

How the data were processed

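Per the labels' protocols, total RNA was treated with DNase and made into libraries with the PrepX mRNA kit. Reads came from a single end, as the design text of the series has it. CASAVA 1.8, RSEM and the build hg19 appear in the submitters' processing notes, without role or order. Read length, strand setting and annotation are not stated there. The authors deposited 1 value per gene and line, read here as RPKM summed over exons. No source states the unit. It was inferred because part of the genes with 1 exon and few reads had values at whole multiples of a constant of the library divided by a length. That part was 31.9% (MDA-MB-453) to 42.3% (MDA-MB-415) at the constants chosen for the best match. The median over all constants tried was 0% (CAL51) to 1.47% (T47D). Those constants gave the depths and the recovered reads.

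Of 16444 rows, 22 with names turned into dates and 4 entries sharing names were left out. Values were compared on the log2(value + 1) scale with Python 3.11.15, pandas 2.3.3 and numpy 2.4.6, and the steps were tested on simulated data. A gene counted as at least 2-fold apart when its difference, less that of all genes, was 1 log2 unit or more. Names, exon numbers and gene order came from GENCODE 29, on a later build than hg19, so no gene coordinates are given. Named were every variant gene, the 12 clustered genes of highest mean log2 level, the 12 of widest range among those reaching 5, those listed at 0 in 3 or more lines, and from each list the widest 5 plus SLBP, NPAT, ASF1B, MKI67 and CENPA. Not all of these are described, and 1 variant gene and 1 leukocyte marker are not reported here. The members, lists and rules were chosen with earlier results of these data known. Alternatives were other pseudocounts, scalings, filters, references and summaries, and each line left out of the 5 others. Added after the data were seen were zeros as missing, members with shared sequence left out, and only members with recovered reads.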

Additional observations from a re-analysis of the deposited data

How the results depend on the processing

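For 72 median differences (clustered, variant, their difference, subtypes, loci and 3 lists, by line) 1296 alternatives were computed. Of these, 1269 moved by less than a factor of 1.5. None of the medians of at least 1 log2 unit changed sign. Several smaller medians did, such as that of the clustered genes in SKBR3 (0.03) under 6 of 13 settings, not counting those with 1 line left out. With a pseudocount of 0.1 the CAL51 values were -1.78 for clustered genes, -1.89 for clustered minus variant, -2.60 for H2B, -1.99 for H4 and -1.85 for HIST1, and H3 in UACC-812 was -1.35. With a pseudocount of 5, H2B in CAL51 was -0.96. Over members that reached 5, CAL51 had -2.20 for H2B, -2.64 for H4 and -2.25 for HIST2. CAL51 was the highest line for none of the 20 clustered genes kept, so the filter itself could lower its medians. Over the same members, clustered genes were -0.66 and HIST1 genes -0.40 in SKBR3, H2A 0.47 in UACC-812 and H3 1.36 in MDA-MB-415. With zeros as missing, H3 in MDA-MB-415 was 0.067, and in CAL51 H2B was -2.20 and H4 -1.65. Without members that share sequence, H2B in SKBR3 was -0.071, and HIST2 was 1.03 in T47D and -2.31 in CAL51. Over members with recovered reads, H3 in MDA-MB-415 was -0.14, H2B and H4 in SKBR3 were 0.20 and 0.99, and HIST2 in CAL51 was -0.74. Leaving 1 line out of the 5 others gave 0.044 to 0.84 for H3 in MDA-MB-415. The cause of these moves was not tested.

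The 21 clustered genes at least 2-fold below in CAL51 became 28 with a pseudocount of 0.1, 9 with one of 5, 14 to 16 under other scalings and 9 of the 26 with recovered reads. The 10 above in MDA-MB-415 became 20, 6, 12 to 14 and 3 of 26, and the 9 above in T47D became 16, 1, 7 and 5 of 26. With no correction for all genes, 13 clustered genes lay below in SKBR3 in place of 2. The 8 genes of the histone mRNA list at least 2-fold above in CAL51 became 4 to 16 and the 8 of the chaperone and exchange list 7 to 14 over the settings. No paired analysis was possible because each line has 1 library and the labels share no replicate numbers. With 1 library a line and many clustered genes under 10 reads, small differences were not detectable at this depth.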
